A study of Drosophila melanogaster with 8 samples.

Results

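Embryos of Drosophila melanogaster sired by males kept on food with 300 g/L sugar were compared with embryos sired by males on 30 g/L sugar, gene by gene and by tissue and process. All genes with a mean of at least 1 FPKM (fragments mapped to a gene, scaled to its length and to the depth of the library) over both embryo groups were taken, which were 9940 of the 15146 genes listed. The study holds 8 RNA sequencing libraries of embryos and sperm, 2 in each of 4 groups, and the 4 embryo libraries are described here. Both embryo groups were whole stage 17 embryos of the strain w1118, and they differed, by the labels, in the sugar given to the fathers. Each group is represented by 1 pooled FPKM value per gene, made by the authors from both libraries, so no spread between libraries can be shown and the depth is unknown. The labels give neither the embryos' age in hours nor the number of clutches, so the father's food and a difference in age within stage 17 cannot be told apart. Nor do they tie the 2 libraries of either group to separate crosses, so the authors' p-values may measure a technical spread.

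Stage 17 is the last embryonic stage, when the epidermis deposits and hardens the larval cuticle, the muscles begin to contract, the tracheae fill with air and the gut matures for feeding. Most larval cells have left the mitotic cycle by then, while neuroblasts, imaginal primordia and germ cells keep, or later regain, the ability to divide. Mothers load the egg with RNA for the early divisions, and most of that RNA is degraded long before this stage. The structural cuticle genes and the maternal and germline RNAs serve here only as a backdrop to the other tissues and processes.

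Markers placed the material at a late embryonic stage in both groups. With the medium-sugar value given first here and below, the neuronal gene elav had 44.5 and 40.8 FPKM, and the muscle myosin gene Mhc had 306 and 418. The oenocyte enzyme Cyp4g1 had 52.9 and 51.9 FPKM, and the glial regulator repo 3.56 and 3.63. Yolk protein genes Yp1 and Yp2, made by adult females, had 0.168 and 0.0709 FPKM, and 0.249 and 0.109. The eggshell genes Cp36 and Vm26Aa were listed at 0, and another eggshell gene, Cp15, had 1.82 and 0 FPKM and was called lower. In the same groups the sperm gene Mst87F had 2.22 and 0.927, dj 0.112 and 0.0516, loopin-1 0.145 and 0, and S-Lap1 0.0958 and 0.0189. These yolk, eggshell and sperm genes, where above 0, were higher in the medium-sugar group, and a cause was not tested. Among the markers of tissues of the larva, the haemocyte gene Hml (0.0640 and 0.0527 FPKM) and the fat body gene Lsp1alpha (0.0770 and 0) were near 0 in both groups.

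Most genes had nearly the same level in both groups. Ratios were computed as log2 of high-sugar over medium-sugar FPKM after adding 0.1 to both, which understates the change of low genes. The median ratio of the 9940 genes was -0.04, the middle 50% of genes lay between -0.18 and 0.12, and 60.5% lay within 0.2 of 0. Ratios below 0 were held by 56.9% of genes. The tails were unequal: 290 genes had a ratio of 1 or more and 116 had -1 or less. Among the 6889 genes whose mean reached 5 FPKM the counts were 145 and 42.

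The authors' deposited table tested 10163 genes and called 72 higher (0.708%) and 10 lower (0.0984%) in embryos of high-sugar fathers, where called means an adjusted p under 0.05. At an unadjusted p under 0.05 the same table holds 2.55% of tested genes on the higher side and 0.787% on the lower side. Of the 9940 genes, 64 were called higher and 9 lower. The cuticle list held 19 of those called higher and the maternal list 4 of those called lower. The remaining 50 genes, 45 higher and 5 lower, are on neither list. By a search of names in RefSeq, 1 of the 45, CG34461, carries the synonym Cpr66Ca of a cuticle protein family. The search covered names only, so the 45 can hold further genes that act in the cuticle, as zye and osy below do.

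**Figure D1:**
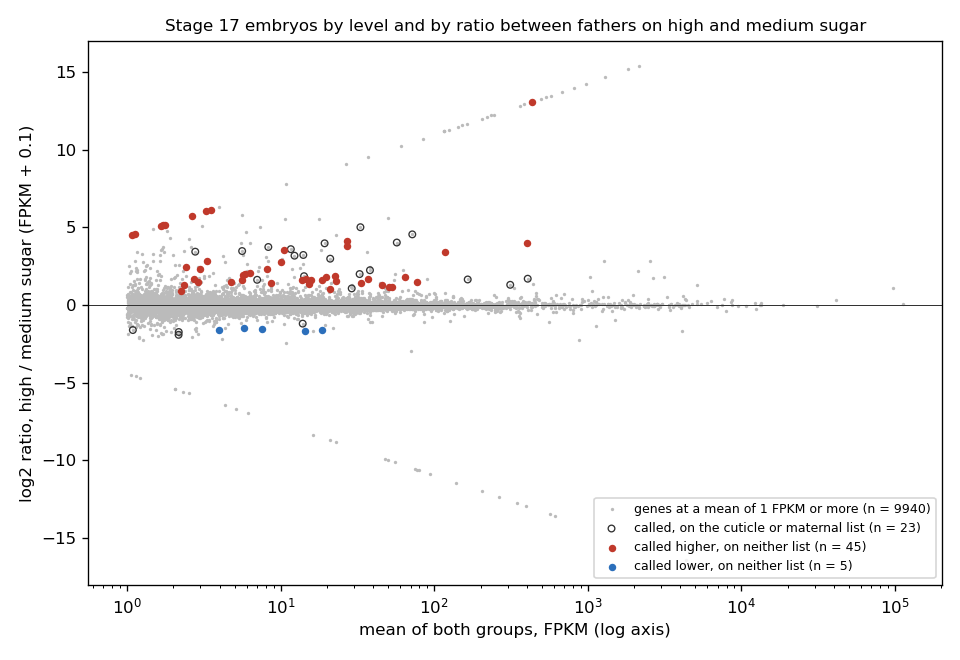
Each point is a gene, by its mean FPKM over both groups (x, log axis) and its log2 ratio between embryos of high-sugar and medium-sugar fathers (y). The 45 genes called higher on neither the cuticle nor the maternal list are red, the 5 called lower are blue, and the straight grey arms at the edges are genes listed at 0 in a group.

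The 45 genes that rose outside the cuticle list had levels spread much like those of all genes. Their mean was below 50 FPKM in 38 of 45 (84.4%), against 85.5% of all 9940 genes, and 32 are known by a CG number. Of the 45, 9 had a medium-sugar value of 0, and the other 36 rose between 1.97-fold and 17.9-fold with a median of 3.22-fold. Only 4 of the 45 stand on any of the 63 tissue and process lists described here, namely Unc-89, Eip74EF, Eaat1 and zye. In sperm, 23 of the 45 (51.1%) were listed at 0 in both groups, against 915 of all 9940 genes (9.21%). Fewer cells of a type and less RNA per cell cannot be told apart in whole embryos, here and in every tissue described.

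Some of the genes with known roles are given first, and no count or test joins them. The gene scaf encodes a secreted serine protease homologue without catalytic activity that acts in epithelial morphogenesis, and it rose from 13.6 to 28.2 FPKM, a change to which the authors' deposited table gives an adjusted p of 0.00959. The gene drd (drop dead), whose loss shortens adult life and disturbs the gut, rose from 8.60 to 21.9 FPKM, and the authors' deposited table gives the same adjusted p of 0.00959. The clotting protein gene fon (fondue), on chromosome arm 2L, rose from 0.929 to 5.06 FPKM, a change to which the authors' deposited table gives an adjusted p of 0.0169. The apical membrane gene zye (3L:20410332-20417322, BDGP5), of the zona pellucida domain family whose proteins tie the epidermal membrane to the cuticle, rose from 2.70 to 8.52 FPKM. The gene listed as CG33970, now named osy, encodes an ABC transporter of the lipid barrier of the cuticle, and it rose from 2.32 to 9.38 FPKM. Its locus overlaps that of other genes in the table, so its value is less certain.

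Most of the rest are known by a CG number, and some of these have newer names. CG30101 and CG16886, now named Vajk4 and Vajk1, both rose, the former from 32.8 to 72.7 FPKM and the latter from 18.04 to 49.0. CG16886 shares its locus with other genes, so its value is less certain. CG9466, now named LManV for a lysosomal mannosidase, rose from 1.26 to 4.21 FPKM. CG15212 reached the highest level of the protein-coding genes among the 45: it rose from 20.4 to 214 FPKM, a 10.5-fold difference. CG17290, CG13063 and CG13239 had ratios of 17.9, 14.1 and 12.1. At the other end of the range the sarcomere gene Unc-89 had 1.97 and scaf 2.08. The gene l(2)34Fc rose from 9.30 to 28.09 FPKM.

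The other CG-numbered genes that rose are given by value, since the tables used here pair them with symbols and not with roles. At the highest levels, CG14147 rose from 40.96 to 114 FPKM, CG15615 from 26.3 to 65.1, CG14752 from 17.5 to 57.1, and CG43386, which shares its locus, from 31.6 to 70.01. At middle levels, CG5326 rose from 9.59 to 35.7 FPKM, CG12934 from 11.9 to 34.3, CG34461, the gene with a cuticle synonym, from 8.62 to 31.0, CG15249 from 7.01 to 22.2 and CG1441 from 6.69 to 20.7. Lower still, CG11584 rose from 2.44 to 17.6 FPKM, CG8563 from 2.64 to 13.7, CG6337 from 2.38 to 10.2 and CG14120 from 1.48 to 4.34. The smallest ratio of these 13 genes was 2.22, that of CG43386. From a medium-sugar value of 0, CG12607 rose to 6.99 FPKM, CG13060 to 6.48, CG13067 to 5.31, CG13051 to 3.51 and CG10953 to 3.42.

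Neighbouring genes rose together at several places in the genome, with coordinates on BDGP5. CG31233 rose from 0.747 to 5.83 FPKM and CG31198 from 4.66 to 12.6, and the pair lies at 3R:17575575-17583490 with 1.09 kb between them. CG7298 (2.34 to 9.05 FPKM) and CG6933 (7.65 to 23.7 FPKM) lie 14.8 kb apart at 3L:20195170-20213497. CG12519, CG18294 and a gene beside them lie at 3L:19464756-19468674, and the medium-sugar value of all 3 was 0. Their high-sugar values were 2.26, 2.15 and 3.31 FPKM. CG17290 and CG10953 lie 10.2 kb apart on 2R. CG13051 and CG13067 lie at 3L:16257813-16265018. In a separate group, CG13063 and CG13060 lie at 3L:16299700-16313554 with 12.7 kb between them. Arm 3L held 18 of the 45 genes, 0.946% of its 1902 genes outside the cuticle and maternal lists, against 0.493% on 2R, 0.338% on 2L, 0.261% on X and 0.168% on 3R. Several of the 18 belong to the groups of neighbours given here.

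The share of calls varied with the length of the locus. Among loci under 500 bases, 2 of 171 genes on neither list (1.17%) were called higher. Among genes whose locus spans 500 to 1000 bases, 14 of 617 on neither list (2.27%) were called higher. Among loci of 20000 bases or more the share was 0.194%. Over all genes of these lengths, the cuticle genes included, the middle 90% of ratios ran from -2.20 to 4.55 for loci under 500 bases. It ran from -0.66 to 2.37 for those of 500 to 1000 bases and from -0.54 to 0.57 for the longest. The part of gene length in the calls was not tested.

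**Figure D2:**
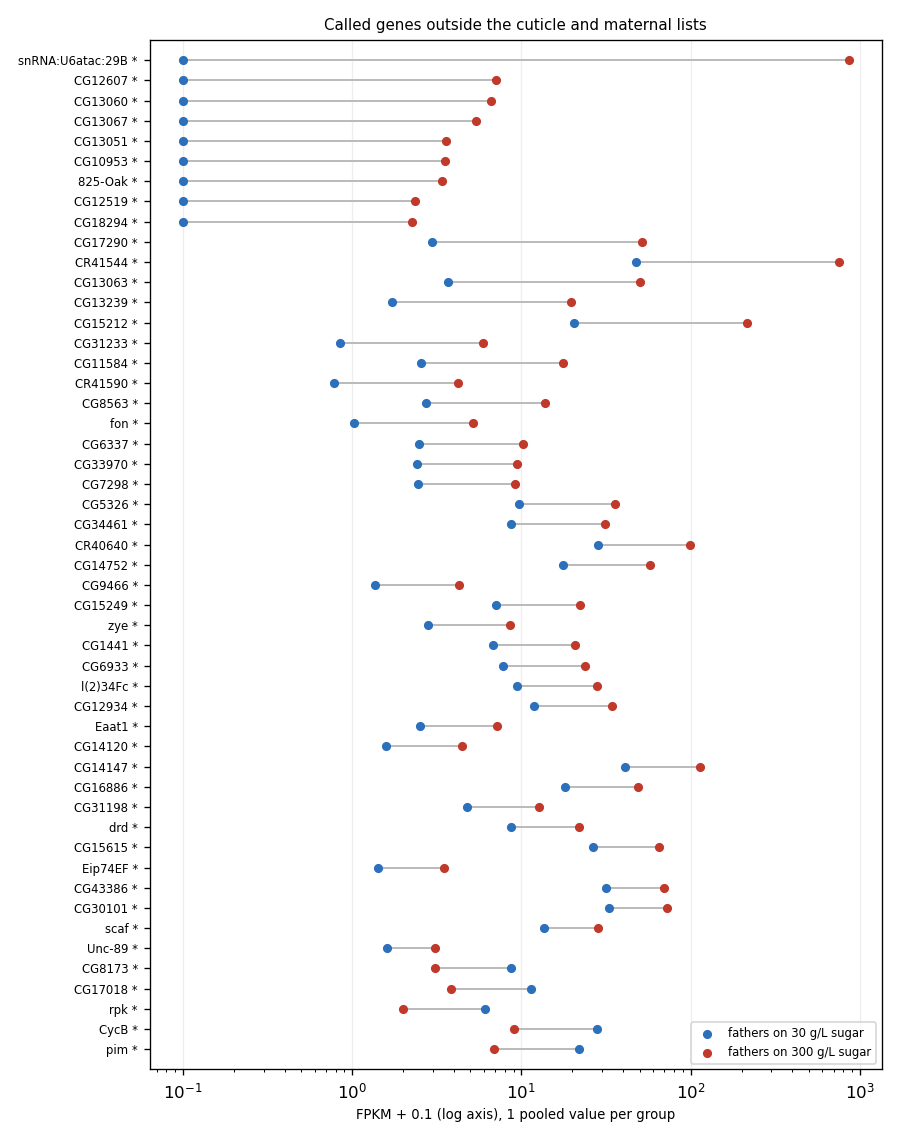
FPKM in embryos of fathers on 30 g/L (blue) and 300 g/L sugar (red), plus 0.1, on a log axis, for the 50 called genes outside the cuticle and maternal lists, 1 pooled value per group. The 9 genes at the top start at the left edge because their medium-sugar value was 0, and the 5 at the bottom fell.

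The calls also include a small nuclear RNA and 3 genes with CR symbols. The spliceosomal snRNA:U6atac:29B, of the minor spliceosome, had a value of 0 with medium sugar and of 860 FPKM with high sugar. Beside it, 7 other short RNA genes whose mean reached 500 FPKM were tested and listed at 0 in 1 group, 3 of them in the high-sugar group, and were not called. CR41544 rose from 47.7 to 758 FPKM, CR40640 from 28.3 to 99.8 and CR41590 from 0.682 to 4.14. The last 3 lie on the unplaced sequence U of the build and had no entry in the names table. In sperm they were listed at 6168 and 5666 FPKM, 646 and 609 FPKM, and 15.8 and 12.1 FPKM in the medium- and high-sugar groups. All 6 sperm values exceed both embryo values of the same gene, but the scaling between the tables is not known.

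Of the 5 genes that fell, 2 act in mitosis. The gene pim encodes securin, the inhibitor of separase that is destroyed when sister chromatids part, and it fell from 21.8 to 6.78 FPKM at 2L:10362989-10364046, a change to which the authors' deposited table gives an adjusted p of 0.00959. CycB encodes the mitotic cyclin B, and it fell from 28.08 to 8.97 FPKM at 2R:18691026-18694490, a change to which the authors' deposited table gives an adjusted p of 0.00959. The ion channel gene rpk (ripped pocket, of the DEG/ENaC family) fell from 5.99 to 1.90 FPKM. CG17018, now named Marf1, fell from 11.3 to 3.73 FPKM and shares its locus with other genes in the table. CG8173 fell from 8.55 to 3.01 FPKM. The maternal list is a list of names, so maternal RNAs can stand outside it, and their part in these 5 values was not tested.

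The 63 lists were matched by symbol and held 1380 different genes, with 24 symbols that no gene in the table carried. A total of 61 lists had 5 or more members at 1 FPKM. The median of 42 lists lay within 0.1 of that of all genes (-0.04), 9 lay more than 0.1 above it and 10 more than 0.1 below. A called member was present in 6 lists, and 44 had no member at an unadjusted p under 0.05. For each list the counts below describe these pools. The lists were chosen with earlier results of these data known.

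**Figure D3:**
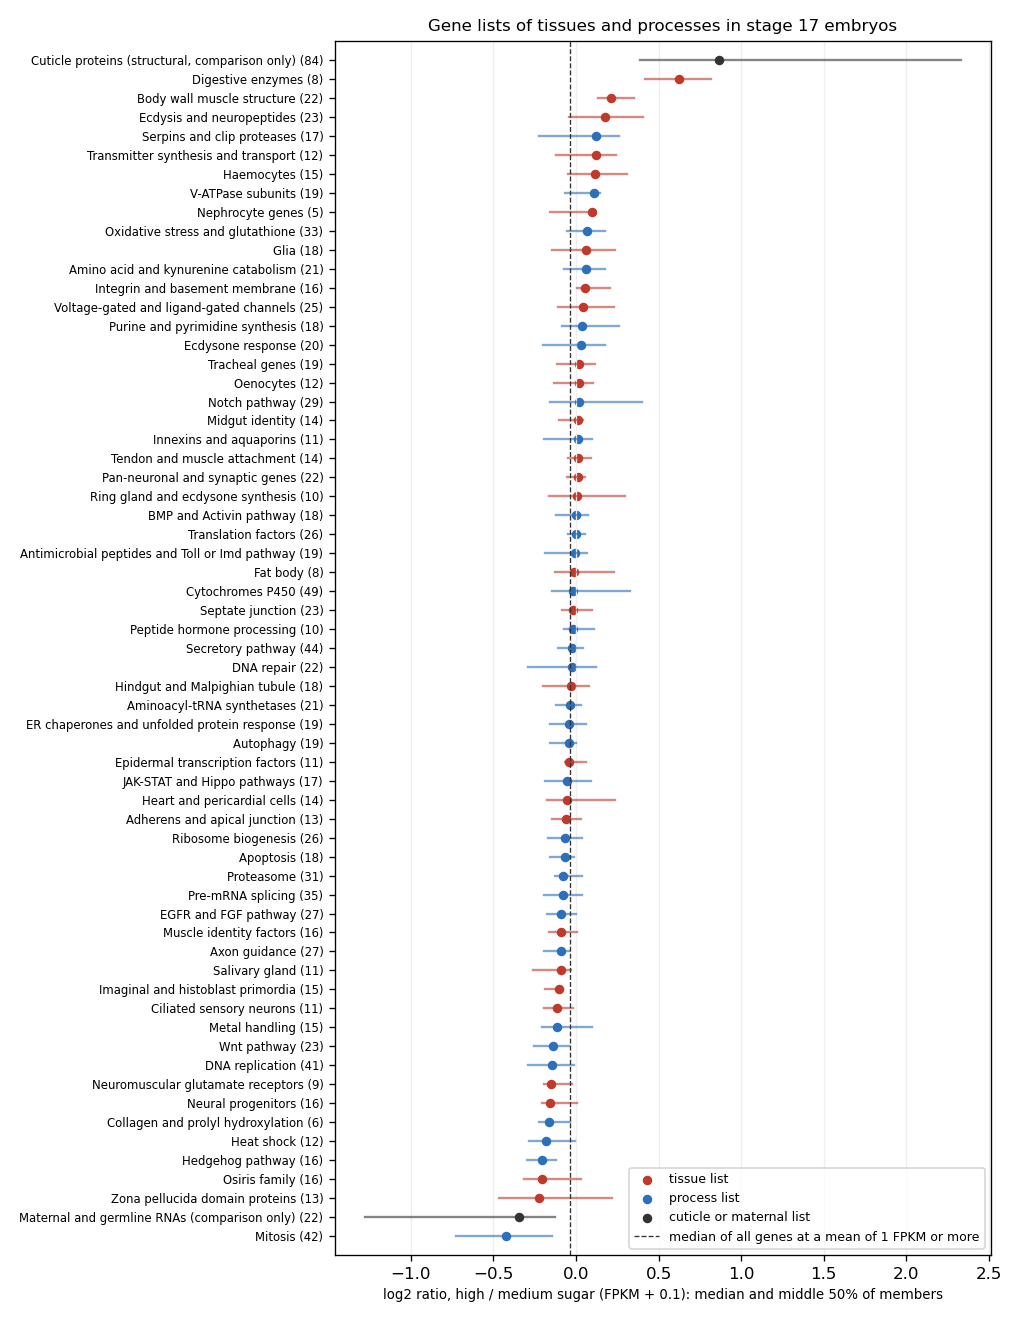
Median (dot) and middle 50% (bar) of the log2 ratio over each list's members that reached a mean of 1 FPKM, with the number of members in parentheses. Lists of tissues are red, processes blue and the cuticle and maternal lists black, and most sit near the dashed median of all genes, with mitosis lowest and digestive enzymes highest of the 61 coloured lists with 5 or more such members.

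Most genes of mitosis had lower values in embryos of high-sugar fathers. Of 42 members at 1 FPKM or more, 40 had a ratio below 0 (95.2%, against 56.9% of all genes), with a median of -0.42. Their median level was 6.54 FPKM in the medium-sugar group and 4.06 in the high-sugar group. Of 45 tested members, 11 had an unadjusted p under 0.05 on the lower side and 0 on the higher side, against 0.787% of all tested genes on the lower side. Both pim and CycB were called. CycB3, another B-type mitotic cyclin, had 6.35 and 2.68 FPKM (unadjusted p = 0.00065, adjusted p = 0.0759 in the authors' deposited table). The mitotic kinase gene polo had 16.8 and 8.84 FPKM (unadjusted p = 0.0012, adjusted p = 0.124 in the authors' deposited table).

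The lower values ran through many steps of division. In values chosen after they were seen, the separase gene thr had 6.90 and 3.74 FPKM, the spindle checkpoint kinase gene BubR1 had 3.75 and 2.09, and the mitotic kinase gene cdc2 had 34.4 and 20.8. The 2 members above 0 were the centrosome gene tacc, which had the highest ratio at 0.07, and the checkpoint kinase gene Bub1 with 3.40 and 3.45 FPKM. The ratio of stg, the phosphatase that triggers mitosis in zygotic cycles, was -0.03, and that of twe, its counterpart in the germline and in eggs, was -1.83. Over members that reached 5 FPKM the median of the mitosis list was -0.31, and with genes of shared loci left out it was -0.33. Without the 2 called genes the median of the list was -0.42. The maternal and germline list moved beside it: 18 of its 22 members were below 0 (81.8%, against 56.9% of all genes), with a median of -0.35. Of its 24 tested members, 9 had an unadjusted p under 0.05 on the lower side, against 0.787% of all tested genes. The authors' table called 5 of them lower, against 0.0984% of all tested genes. Its members too were chosen with earlier results of these data known. The part of maternal RNA in the mitotic values was not tested.

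**Figure D4:**
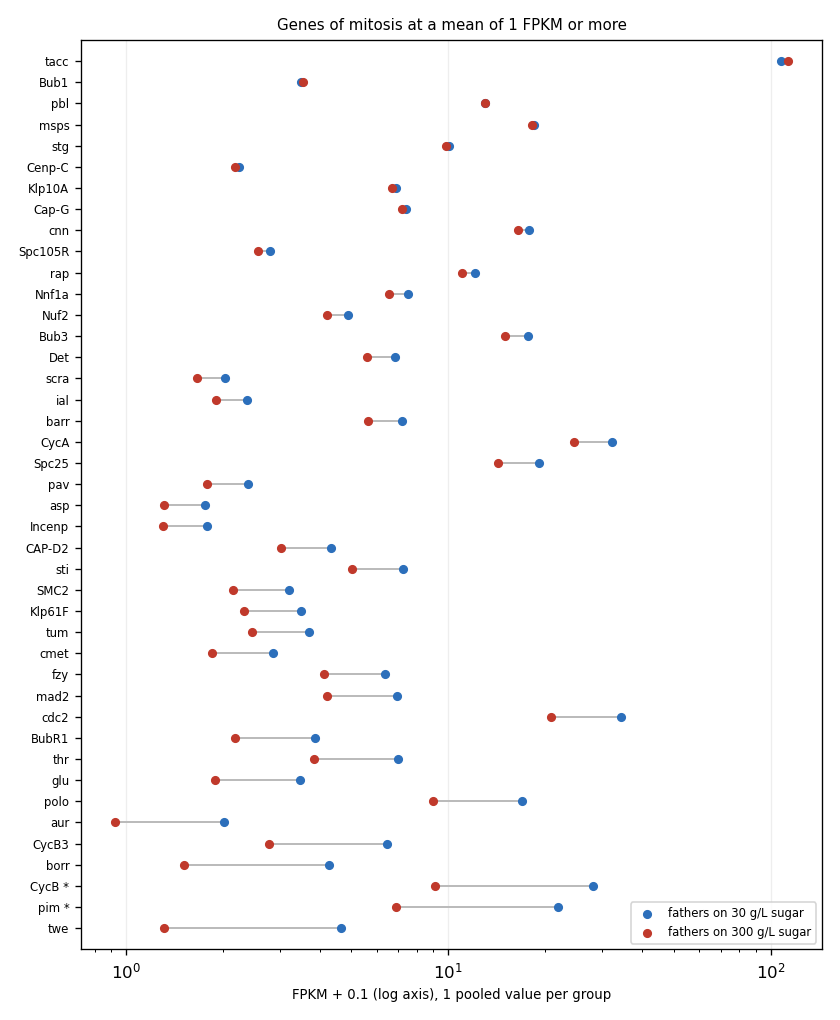
FPKM plus 0.1 (log axis) of the 42 mitosis genes that reached a mean of 1 FPKM, in embryos of fathers on 30 g/L (blue) and 300 g/L sugar (red). The red point lies left of the blue one in 40 genes, and the called genes pim and CycB carry an asterisk.

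For DNA replication genes no call was made. Of 41 members, 31 were below 0 (75.6%), the median was -0.15, and 0 of the 41 tested reached an unadjusted p under 0.05 in either direction. The highest in level were RnrS, a subunit of ribonucleotide reductase, with 43.04 and 40.96 FPKM, and mus209, which encodes the sliding clamp PCNA, with 26.9 and 31.5. DNA repair genes had a median of -0.03. The neural progenitor list, with regulators of neuroblasts, had 12 of 16 members below 0, a median of -0.16 and 0 called. The imaginal and histoblast list had 12 of 15 below 0 and a median of -0.10. No member of the 2 lists had an unadjusted p under 0.05.

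Most structural genes of the body wall muscle had higher values in embryos of high-sugar fathers. Of 22 members, 21 had a ratio above 0 and the median was 0.21. The median level was 280 FPKM in the medium-sugar group and 353 in the high-sugar group. Unc-89, now named Obsc, encodes the giant sarcomere protein obscurin, and it rose from 1.51 to 2.98 FPKM at 2R:19883066-19901384, a change to which the authors' deposited table gives an adjusted p of 0.0299. Zasp66, a Z-disc protein gene that shares its locus, had 10.7 and 24.7 FPKM (unadjusted p = 0.0094, adjusted p = 0.558 in the authors' deposited table). The other 20 members had no unadjusted p under 0.05.

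The abundant sarcomere genes were not called. Act57B, a larval muscle actin, had 1416 and 1550 FPKM, and the myosin heavy chain gene Mhc had 306 and 418. The exception below 0 was tmod, a thin filament capping protein gene, with 93.5 and 89.6 FPKM. Transcription factors that set muscle identity had a median of -0.09, with 11 of 16 below 0, and the list of neuromuscular glutamate receptors had a median of -0.15, with 7 of 9 below 0. Tendon and muscle attachment genes had a median of 0.01, with 7 of 14 members on each side of 0. No member of these 3 lists was called.

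Genes of a feeding gut were low in both groups. Most of the few that reached 1 FPKM had higher values in embryos of high-sugar fathers. Of 49 digestive enzyme genes, 8 reached 1 FPKM, 16 were listed at 0 in both groups, 7 of the 8 were above 0 and their median ratio was 0.62. With 1 in place of 0.1 added to both values the median was 0.48, and over all 49 genes, with no minimum level, it was 0. Members that reach the minimum through the high-sugar group had to differ, so these counts are a description of the 8 genes. The protease gene yip7, with a mean below 1 FPKM, was called: its values were 0 and 1.48 FPKM. The maltase gene Mal-A2 had 0.986 and 3.88 FPKM (unadjusted p = 0.0007, adjusted p = 0.0808 in the authors' deposited table). The serine protease gene Jon65Aiii had 5.32 and 12.0 FPKM (unadjusted p = 0.0055 in the authors' deposited table). The trypsin gene iotaTry was the member below 0, with 2.38 and 1.35 FPKM.

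Mucins and proteins of the peritrophic matrix, the chitin sheet that lines the midgut, were also low. Only 4 of 24 reached 1 FPKM, with a median of 0.83, and over all 24 genes the median was 0. Of the mucin list, 4 of the 5 tested had an unadjusted p under 0.05 on the higher side, where 2.55% of all tested genes stand. None was called. Low members could be tested or reach the minimum through their high-sugar values, so these counts are a description of those genes only. Muc91C had 7.51 and 13.5 FPKM, Mur29B 2.65 and 4.72, and Muc55B 0.894 and 3.17. Muc26B, below the minimum mean, had 0.333 and 1.37 FPKM, and Peritrophin-A, the highest, had 29.6 and 36.2. Genes of midgut identity, which specify the organ, had a median of 0.01 with 8 of 14 above 0 and no member at an unadjusted p under 0.05.

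**Figure D5:**
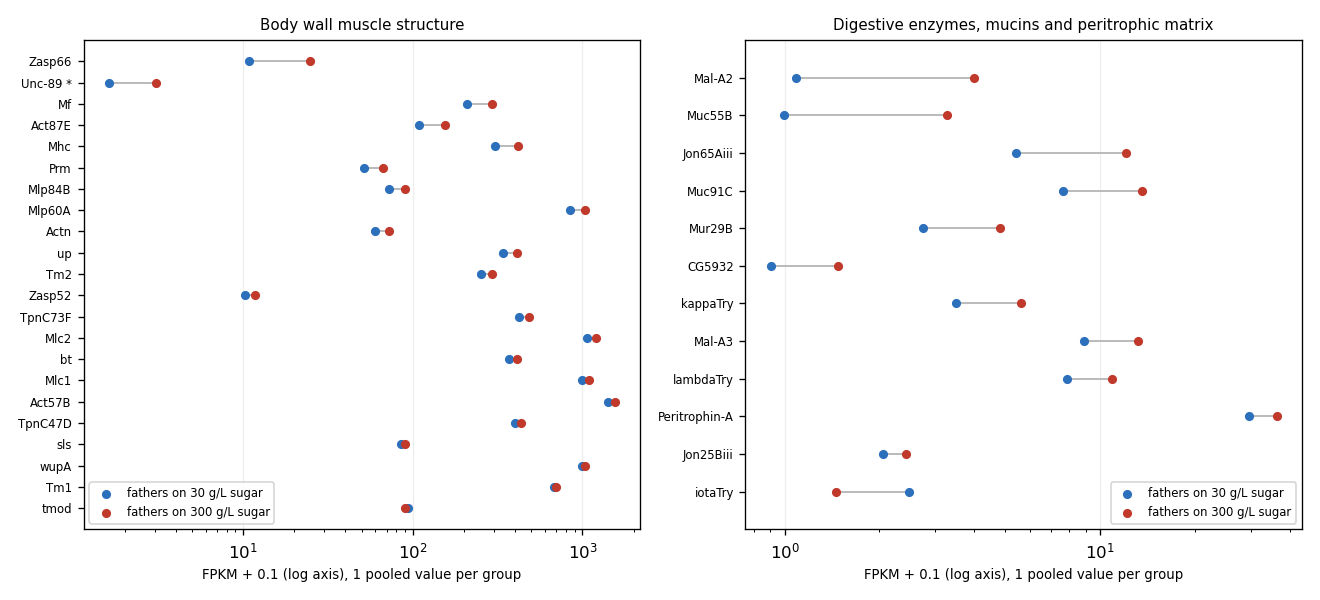
FPKM plus 0.1 (log axis) in embryos of fathers on 30 g/L (blue) and 300 g/L sugar (red) for body wall muscle genes (left) and for digestive enzymes, mucins and peritrophic matrix genes (right) that reached a mean of 1 FPKM. In both panels 1 gene, tmod and iotaTry, had its red point left of the blue one, and the called gene Unc-89 carries an asterisk.

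In the excretory system and the acid-secreting pump the values were close. The hindgut and Malpighian tubule list had a median of -0.03 and 10 of 18 members below 0. Its member Ndae1, an anion exchanger, had 3.34 and 5.79 FPKM (unadjusted p = 0.0097, adjusted p = 0.567 in the authors' deposited table). The 19 subunits of the vacuolar proton ATPase had a median of 0.11, with 12 above 0 and none called. Fat body genes had a median of -0.01, and the lipophorin gene Rfabg, whose product carries lipid in the haemolymph, had 2476 and 2253 FPKM. Oenocyte and tracheal genes both had a median of 0.02. Without the 3 genes it shares with the cuticle and maternal lists, the tracheal median was -0.01.

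The nervous system showed a single called gene among its lists. Pan-neuronal and synaptic genes had a median of 0.01 with 13 of 22 above 0, and voltage-gated and ligand-gated channels had a median of 0.04. In the glial list, with a median of 0.06 and 11 of 18 above 0, Eaat1 was called. It encodes the transporter that clears glutamate from synapses, and it rose from 2.42 to 7.06 FPKM at 2L:9333568-9341925, a change to which the authors' deposited table gives an adjusted p of 0.0246. The glial regulator repo differed little, as given above. CG6126, another member of the glial list, had 2.28 and 4.33 FPKM (unadjusted p = 0.0213 in the authors' deposited table).

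Genes of transmitter synthesis and transport had a median of 0.12. The dopa decarboxylase gene Ddc, which makes dopamine in neurons and in the epidermis for hardening of the cuticle, had 0.610 and 2.56 FPKM (unadjusted p = 0.0190 in the authors' deposited table). Ddc shares its locus with other genes, so its value is less certain. Axon guidance genes had 24 of 27 members below 0 (88.9%) with a median of -0.09, and all 27 had an unadjusted p of 0.05 or more. Their largest by level, plexA and Eph, had 128 and 126 FPKM, and 108 and 102. Ciliated sensory neuron genes had 9 of 11 below 0 and a median of -0.12.

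Neuropeptides and ecdysis hormones had a median of 0.17 with 13 of 23 above 0, but over members that reached 5 FPKM the median was -0.15. The highest in level were Gpb5, a glycoprotein hormone subunit, with 15.5 and 15.2 FPKM, and itp, an ion transport peptide, with 13.8 and 11.5. No member was called or had an unadjusted p under 0.05. Peptide hormone processing genes had a median of -0.02.

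Steroid hormone genes lay on both sides of 0. The ecdysone response list had a median of 0.03 with 11 of 20 above 0. Without the 3 genes it shares with the cuticle and maternal lists the median was 0.01. Of its 21 tested members, 2 had an unadjusted p under 0.05, both higher, where 2.55% of all tested genes stand. Eip74EF, an early ecdysone-induced transcription factor, was called: it rose from 1.33 to 3.38 FPKM at 3L:17553258-17612407, a change to which the authors' deposited table gives an adjusted p of 0.0496. Its adjusted p is the last under the threshold, tied with that of CG43386 and of some called genes on the cuticle and maternal lists. Eip74EF shares its locus with other genes in the table. The nuclear receptor gene ftz-f1, which sits downstream of the ecdysone pulse, had 57.2 and 97.0 FPKM (unadjusted p = 0.0121, adjusted p = 0.658 in the authors' deposited table).

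Other hormone genes lay on the opposite side, in a comparison chosen after the values were seen. The imaginal disc genes ImpL1, ImpE2 and ImpE1, first found as ecdysone-inducible, had 691 and 500 FPKM, 390 and 288, and 107 and 83.3, with no unadjusted p under 0.05. Genes of ecdysone synthesis in the ring gland had a median of 0.01 with 5 of 10 above 0. The receptor tyrosine kinase gene tor, also a maternal RNA, shares its locus and had 2.17 and 0.378 FPKM (unadjusted p = 0.0192 in the authors' deposited table).

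Lists of epidermal surface genes other than the structural cuticle proteins had medians below 0, where the median of all genes was -0.04. The Osiris family, transmembrane proteins expressed in cuticle-secreting cells, had a median of -0.21. Of its members 10 of 16 were below 0 (62.5%, near the 56.9% of all genes). Its most abundant members Osi6 and Osi7 had 1875 and 1578 FPKM, and 990 and 821. The zona pellucida domain list had 8 of 13 below 0 (61.5%) and a median of -0.23, with 1 member, zye, called higher. Its member dy (dusky) had 8.67 and 5.06 FPKM (unadjusted p = 0.007 in the authors' deposited table). On the cuticle list, in contrast, 74 of 84 members were above 0 and the median was 0.86. Septate junction genes had a median of -0.02 and epidermal transcription factors -0.04. Without the 1 gene it shares with the cuticle or maternal list, the septate junction median was -0.04.

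Signalling lists lay near or slightly below the median of all genes, and none had a called member. Hedgehog pathway genes had 13 of 16 below 0 and a median of -0.21, Wnt pathway genes 19 of 23 below 0 and -0.14, and EGFR and FGF genes 20 of 27 below 0 and -0.09. Their largest by level were close: the Wnt effector arm had 99.3 and 106 FPKM, and the Hedgehog effector ci 56.9 and 63.1. The Notch list had a median of 0.02. Its members Tom and BobA, Bearded-family inhibitors of Notch signalling, had 23.9 and 39.1 FPKM, and 6.83 and 13.6, with unadjusted p of 0.0127 and 0.0214 in the authors' deposited table. BMP and Activin genes had a median of 0.00.

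Defence and detoxification genes were close in level on the whole. Antimicrobial and Toll or Imd genes had a median of -0.01, cytochromes P450 -0.02, and oxidative stress and glutathione genes 0.06, with none called. GstD5, a glutathione transferase, had 5.16 and 13.7 FPKM (unadjusted p = 0.0024, adjusted p = 0.216 in the authors' deposited table). Cyp12c1 had 0.564 and 2.03 FPKM (unadjusted p = 0.00885 in the authors' deposited table). Heat shock genes had 9 of 12 members below 0 and a median of -0.18, which was -0.04 over members that reached 5 FPKM, and the small heat shock protein gene Hsp26 had 4.57 and 2.23 FPKM (unadjusted p = 0.0355 in the authors' deposited table).

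Lists of housekeeping machinery held no called gene. Medians were -0.08 for pre-mRNA splicing and for the proteasome, -0.07 for ribosome biogenesis, -0.04 for aminoacyl-tRNA synthetases, -0.02 for the secretory pathway and -0.00197 for translation factors. These 6 lists also held no member at an unadjusted p under 0.05. The translation factor eIF-5A had 2756 and 2869 FPKM, and the secretory small GTPase gene Arf79F had 580.3 and 573. In metabolism, v, the tryptophan oxygenase gene of the kynurenine pathway, had 9.31 and 18.6 FPKM (unadjusted p = 0.0021, adjusted p = 0.194 in the authors' deposited table). Its list of amino acid catabolism had a median of 0.06 with 12 of 21 above 0.

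Lists of blood, heart and matrix genes had members on both sides of 0. Haemocyte genes had a median of 0.12 with 10 of 15 above 0, and their most abundant members Nplp2 and Ppn had 1656 and 1607 FPKM, and 171 and 178. Heart and pericardial genes had a median of -0.06. Of these, prc, which shares its locus and encodes the matrix protein pericardin around the heart tube, had 6.49 and 9.31 FPKM (unadjusted p = 0.0495 in the authors' deposited table). Integrin and basement membrane genes had 12 of 16 above 0 and a median of 0.05, while the laminin subunit gene LanA had 376 and 364 FPKM. Collagen and prolyl hydroxylation genes had a median of -0.16 over 6 members, and the salivary gland list had 9 of 11 below 0 and a median of -0.09. Serpins and clip proteases had a median of 0.12, or 0.02 over members that reached 5 FPKM, and the serpin gene Spn77Ba, an inhibitor of tracheal melanization, had 3.42 and 5.70 FPKM (unadjusted p = 0.0398 in the authors' deposited table). No member of these 6 lists was called.

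The medians of the remaining lists ran from -0.12 to 0.09. They were -0.12 for metal handling, -0.07 for apoptosis, -0.06 for adherens and apical junctions, -0.05 for JAK-STAT and Hippo, and -0.04 for both autophagy and chaperones of the endoplasmic reticulum. On the other side they were 0.01 for innexins and aquaporins, 0.03 for purine and pyrimidine synthesis and 0.09 for 5 nephrocyte genes. The metallothionein gene MtnA, whose product binds heavy metals, had 679 and 897 FPKM, and the ferritin light chain gene Fer2LCH had 202 and 186. The autophagy gene Atg8a had 247.6 and 247.7 FPKM. In pyrimidine metabolism, su(r) had 2.23 and 3.56 FPKM (unadjusted p = 0.0478 in the authors' deposited table). Only 4 of 19 visual system genes reached 1 FPKM, and the eye regulator so had 4.44 and 4.54.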

How the data were processed

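RNA of stage 17 embryos and of sperm was sequenced after Trizol extraction, ribosomal RNA depletion and stranded library preparation, per the labels' protocols. TopHat2 2.0.8, Cuffdiff 2.1.1 and the build BDGP5 were used, per the submitters' processing notes, and for the annotation and options the sources used here give nothing. Per the file headers, the values are FPKM, 1 per group, beside a p-value and an adjusted p-value of the authors' own test. The deposited adjusted p-values equal a Benjamini-Hochberg adjustment over the 10163 tested genes within 5e-10. The smallest deposited p-value is 5e-05. No test was refitted, since no values per library were used, and 0 columns of values per sample were left unused. Low FPKM values show no whole-read steps, so no counts could be recovered.

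With Python 3.11.15, pandas 2.3.3 and numpy 2.4.6, ratios were computed as log2 of FPKM plus 0.1, and list medians over members that reached a mean of 1 FPKM. The steps were tested on simulated data. Genes were called at an adjusted p under 0.05, without a minimum fold. Symbols, newer names and gene kinds came from BDGP6 and the names table, which hold 14278 of the 15146 identifiers and gave an entry to 47 of the 50 called genes on neither list; no coordinates were taken from them. Starts were counted from 1. The 5679 genes that share a locus in the table are less certain, and 67 genes stand on more than 1 list. The rule for named genes took the called genes outside the cuticle and maternal lists, of which 1 is given without its name, and, of each list, called members and up to 4 members with the smallest unadjusted p under 0.05, otherwise the 2 highest in level; other names are marked as chosen after their values were seen, apart from markers, extremes and list members at the edge of a count. Members and lists were chosen with earlier results of these data known. Alternatives were other pseudocounts, minimum levels, thresholds and a recentred scale. No sequences are printed.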

Additional observations from a re-analysis of the deposited data

Results flagged for a closer look

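Small RNAs that the authors' table did not test were listed at 0 FPKM in the medium-sugar embryos and at high values in the high-sugar embryos, in 12 of the 19 untested genes with a mean of 100 FPKM or more. They were singled out because these values lie outside the comparison tested and above a control value of 0. Of the untested RNAs given here, all but tRNA:Q:34E share a locus with other genes, so their values are less certain. The values in the high-sugar group were 1634 for snoRNA:Or-CD11b, 1366 for tRNA:Q:34E, 1145 for snoRNA:Me28S-A2113 and 1068 for a further snoRNA. They were 770.1 for snoRNA:Me28S-C3351, 489.9 for snoRNA:Me18S-U1356a, 441.1 for snoRNA:Me28S-G2743 and 406.7 for snoRNA:Me18S-G1952. The lowest were 302.3 for snoRNA:Me18S-A425, 250.8 for snoRNA:Me18S-C1096, 231.8 for snoRNA:Me28S-C3227a and 231.8 for snoRNA:Me28S-G3113a. Another 4 untested small RNAs went the other way: snoRNA:U27:54Ea was listed at 789 FPKM in the medium-sugar group, snoRNA:Me28S-A771 at 531, snoRNA:Me28S-G764 at 408 and snoRNA:U14:30Eb at 275, each at 0 in the high-sugar group. A cause was not tested.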

How the results depend on the processing

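No paired analysis was possible because each group has 1 pooled value per gene, and for the same reason no library could be left out. The count of genes called higher was 72, and 47 of at least 5 FPKM. The count called lower was 10, and 5 at an adjusted p under 0.01 and 5 at a mean of at least 5 FPKM. The other thresholds, a recomputed adjustment and genes with shared loci left out kept both counts within 1.5 times. The neuropeptide median, 0.17, was -0.15 with a minimum mean of 5 FPKM. At that minimum the mitosis median went from -0.42 to -0.31, heat shock from -0.18 to -0.04 and serpins from 0.12 to 0.02. Glia went from 0.06 to -0.05 and DNA repair from -0.03 to -0.13. With no minimum, medians were 0 for digestive enzymes and mucins, 0.04 for neuropeptides, -0.14 for fat body, -0.10 for ecdysone synthesis and -0.01 for nephrocytes. Without shared loci they were 0.16 for glia, -0.09 for purines and 0.13 for ecdysone synthesis. The cause was not tested. Of 505 alternative list medians 22 moved by over 0.1 and 1 of size 0.1 or more changed sign, while 35 medians under 0.1 did. Of 498 alternative ratios of named genes 72 moved by over 0.1, and 0 called ones changed sign. The recentred scale set genes at 10 FPKM or more, whose median is -0.04, to 0. Lists without cuticle and maternal genes, and mitosis without its called genes, were added after seeing the data. Unknown depth limits what the low genes can show.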

Other observations

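At a mean of 500 FPKM or more, 7 short RNA genes were tested and not called although 1 of their values was 0. All 7 share a locus with other genes, so their values are less certain. In the authors' deposited table mir-2492 was listed at 1128 and 0 FPKM in the medium- and high-sugar embryos, mt:tRNA:C at 8648 and 0, and snoRNA:U14:30Ea at 1228 and 0. The other 4 had a medium-sugar value of 0, with 4301 FPKM for snoRNA:Me28S-A992, 3676 for snoRNA:Or-CD11a, 2569 for tRNA:CR32493 and 1956 for snoRNA:U27:54Eb with high sugar. The most abundant snoRNA, snoRNA:185, had 61200 and 132992 FPKM. The 162 snoRNAs at 1 FPKM or more had a median ratio of 0.06 with the middle 90% between -5.44 and 12.79, against -0.47 and 0.59 for 9008 protein-coding genes.

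By chromosome, the medians lay close together. They were -0.05 on 2L, -0.03 on 2R, -0.04 on 3L, -0.04 on 3R, -0.02 on X and 0.01 for the 80 genes of chromosome 4. The 19 genes of the mitochondrial genome had a median of 0.17.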
